A study of Mus musculus with 6 samples.

Results

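The epithelial keratins described here are 9 genes of the mouse kidney, Krt5, Krt7, Krt8, Krt15, Krt18, Krt19, Krt20, Krt23 and Krt80. They were chosen by symbol from the 40993 genes of the deposited expression table, which holds 51 keratin genes in all, and each of the 9 has a single entry in it. Whole kidneys of C57BL/6 mice aged 2 months were profiled by RNA sequencing, 3 from mice on an adenine-enriched diet and 3 from mice on a standard diet. The labels give no other difference between the groups, and neither the sex of the mice nor the length of the feeding is among them. The libraries are called adenine 1 to 3 and standard 1 to 3. Adenine given in excess is turned into a poorly soluble product that injures renal tubules. Because whole kidneys were sequenced, fewer cells of a type and less RNA per cell cannot be told apart, and the data do not show in which tubule or duct a keratin was made.

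Keratins are the intermediate filament proteins of epithelia. A filament is built from a type I chain paired with a type II chain, and the pair used depends on the epithelium. Krt8 (type II) with Krt18 (type I) is the pair of simple, single-layered epithelia, joined by Krt7 (type II) and Krt19 (type I) in ducts, while Krt5 (type II) with Krt14 or Krt15 (type I) marks the basal cells of stratified epithelia such as the urothelium that lines the renal pelvis. Krt20 (type I) is known from the surface cells of the urothelium and from the gut. In the healthy kidney simple keratins are found mainly in collecting ducts, and they are known to appear in injured tubules.

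Levels are FPKM, in which the authors divided fragments by transcript length and by depth, and the error of a mean level is the SD of the 3 libraries on that diet. Differences were tested with limma on log2(FPKM + 1) over the 15431 genes whose mean was at least 0.5 FPKM, with Benjamini-Hochberg adjustment over all of them, and a gene is said to have risen or fallen where the adjusted p was under 0.05. Depth, estimated from the spacing of low values, was 17.3 to 23.5 M fragments per library. The labels do not state whether each kidney sample came from its own mouse, and the p-values therefore cover only sample-to-sample spread, which may be technical. Keratin genes resemble each other in sequence, and how the counting shared out reads that fit several of them is not stated. The median gene tested was 0.25 higher in the adenine libraries on the log2 scale, so each change is given also after median-of-ratios scaling, which takes that shift out.

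All 9 keratins passed the filter, and 5 of them rose on the adenine-enriched diet, namely Krt7, Krt8, Krt18, Krt19 and Krt20, while none fell. Krt20 passed the filter only through the adenine libraries, as its mean on the standard diet was 0.266 FPKM. Across all genes tested, 29.7% rose and 6.84% fell, 36.5% in either direction. These shares are given for scale only, since the 9 genes were chosen with earlier results of these data known. After median-of-ratios scaling the same 5 rose and none fell, where 16.4% of all genes rose and 15.8% fell, 32.1% in either direction. The groups did not overlap for the same 5 keratins, and every adenine library lay above every standard library for 44.4% of all genes, so that count is near the background. The median log2 change over the 9 keratins was 0.98, or 0.69 after scaling. Krt5, Krt15, Krt23 and Krt80 did not pass the test. With the replicate number as a block, which pairs the samples of the same number, 6 of the 9 rose, Krt15 being the added gene (limma adjusted p = 0.0132).

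**Figure D1:**
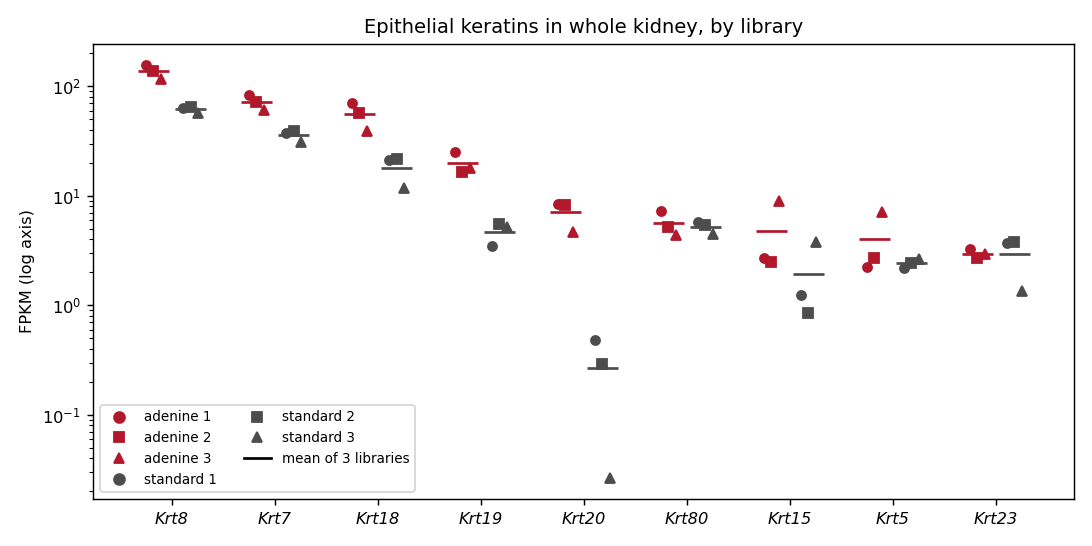
FPKM of the 9 epithelial keratins in each library on a log axis, adenine libraries in red left of standard libraries in grey, with a line at the mean of each 3. Krt8, Krt7, Krt18, Krt19 and Krt20 separate by diet, with Krt20 between 4.72 and 8.49 FPKM in the adenine libraries and at most 0.481 FPKM in the standard libraries, whereas Krt80, Krt15, Krt5 and Krt23 overlap.

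Among the type II chains, Krt8 was the most abundant keratin on either diet (chromosome 15, 101996711 to 102004342, minus strand, GRCm38, as deposited). It had 158, 138 and 116 FPKM in adenine 1 to 3, against 63.5, 65.5 and 57.2 FPKM in standard 1 to 3. Every adenine library was above every standard library. The means were 137 ± 21.1 and 62.1 ± 4.35 FPKM on the adenine-enriched and standard diets, a 2.21-fold difference, with a log2 change of 1.12 ± 0.131 (SE, limma adjusted p = 0.00448) that was 0.81 after median-of-ratios scaling (limma adjusted p = 0.00553).

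Krt7, the type II keratin of ductal and transitional epithelia, lies on the same chromosome (101411043 to 101430313, plus strand). Its levels were 83.3, 72.4 and 60.8 FPKM in adenine 1 to 3, against 37.6, 39.0 and 31.0 FPKM in standard 1 to 3. The groups were again separate, and adenine 3 and standard 3 were the lowest of their diets, as they were for Krt8. The mean was 2.01-fold higher on the adenine-enriched diet, and the log2 change of 0.98 ± 0.144 (SE, limma adjusted p = 0.00688) became 0.67 after scaling.

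Krt18, the type I partner of Krt8, lies 23873 bp from it on the opposite strand (chromosome 15, 102028216 to 102032026). It is the single type I keratin outside the type I cluster on chromosome 11. Krt18 had 70.2, 57.4 and 39.1 FPKM in adenine 1 to 3, against 21.1, 21.6 and 11.7 FPKM in standard 1 to 3. The groups did not overlap, although adenine 3 and standard 3 were each well below the others of their diet. The mean level was 55.6 ± 15.6 FPKM on the adenine-enriched diet and 18.1 ± 5.54 FPKM on the standard diet, 3.06-fold higher, with a log2 change of 1.57 ± 0.292 (SE, limma adjusted p = 0.0112) and of 1.26 after scaling. Without standard 3 the log2 change was 1.30 (limma adjusted p = 0.0326).

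Krt19, a type I keratin without the tail domain of the others, was the keratin of ducts with the larger relative change. Its levels were 25.0, 16.4 and 18.1 FPKM in adenine 1 to 3, against 3.46, 5.54 and 5.15 FPKM in standard 1 to 3 (chromosome 11, 100140810 to 100148665, minus strand). The lowest adenine library was well above the highest standard library, and here neither adenine 3 nor standard 3 was the lowest. The difference of means was 4.2-fold, and the log2 change was 1.86 ± 0.211 (SE, limma adjusted p = 0.00428), or 1.58 after scaling. Krt15 lies 4881 bp from Krt19 on the same strand and did not pass the test.

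Krt20 had the largest fold difference among the 9 (chromosome 11, 99428403 to 99438150, minus strand). It was 8.49, 8.20 and 4.72 FPKM in adenine 1 to 3, against 0.481, 0.290 and 0.0264 FPKM in standard 1 to 3. It was at the limit of detection in standard 3, where 3 fragments of its longest transcript would give about 0.1 FPKM. The value there was below that. In standard 1 and 2 the same limit was 0.0859 and 0.0992 FPKM, and both values were above it. The means were 7.14 ± 2.1 and 0.266 ± 0.228 FPKM on the adenine-enriched and standard diets, a 26.9-fold difference whose size rests on few fragments in the standard libraries. On the log2(FPKM + 1) scale, which understates the change of such low values, the rise was 2.66 ± 0.249 (SE, limma adjusted p = 0.00332), and it was 2.50 after scaling and 4.52 with a pseudocount of 0.1.

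**Figure D2:**
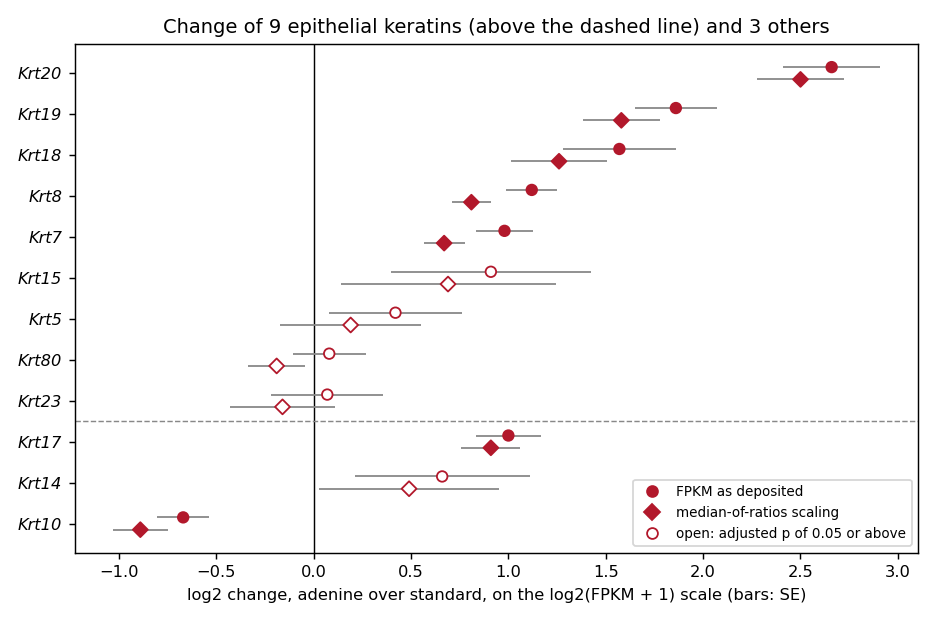
Log2 change on the adenine-enriched relative to the standard diet with its SE, for FPKM as deposited (circles) and after median-of-ratios scaling (diamonds), with filled marks where the limma adjusted p was under 0.05. Krt20, Krt19, Krt18, Krt8 and Krt7 lie at 0.98 or more as deposited, Krt80 and Krt23 lie near 0 and change sign with scaling, and below the dashed line Krt17 is higher and Krt10 lower on the adenine-enriched diet.

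The other 4 keratins did not pass the test. Krt15, a type I keratin of basal cells, had 2.72, 2.51 and 8.99 FPKM in adenine 1 to 3, against 1.23, 0.856 and 3.76 FPKM in standard 1 to 3. Adenine 3 and standard 3 were each the highest of their diet by a wide margin, and each adenine library was above the standard library of the same number. Its log2 change was 0.91 ± 0.514 (SE, limma adjusted p = 0.198), 0.69 after scaling. With the replicate number as a block the same change passed the test (limma adjusted p = 0.0132, and 0.0221 with scaling as well), and it passed without adenine 3 and standard 3 together (log2 change of 0.83, limma adjusted p = 0.0271), a setting chosen after the values were seen.

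Krt5, the type II keratin of basal cells, had 2.24, 2.72 and 7.06 FPKM in adenine 1 to 3, against 2.20, 2.46 and 2.64 FPKM in standard 1 to 3. A single library, adenine 3, stood above the rest, and the other 5 lay close together. The log2 change was 0.42 ± 0.341 (SE, limma adjusted p = 0.347). Without adenine 3 it was 0.02 (limma adjusted p = 0.919), and with quantile normalization it was -0.08.

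Krt80, a type II keratin found at desmosomes, had 7.34, 5.19 and 4.42 FPKM in adenine 1 to 3, against 5.73, 5.37 and 4.52 FPKM in standard 1 to 3. Krt23, a type I keratin, had 3.24, 2.68 and 2.94 FPKM in adenine 1 to 3, against 3.69, 3.78 and 1.36 FPKM in standard 1 to 3. The groups overlapped for both. Their log2 changes were 0.08 ± 0.188 and 0.07 ± 0.288 (SE, limma adjusted p = 0.746 and 0.852), and after median-of-ratios scaling they were -0.19 and -0.16 (limma adjusted p = 0.345 and 0.679). For Krt23 the sign depended on standard 3, the lowest of its libraries: without it the log2 change was -0.26 (limma adjusted p = 0.210).

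The order of the levels differed between the diets below the 3 most abundant genes. On the adenine-enriched diet the order by mean was Krt8, Krt7, Krt18, Krt19, Krt20, Krt80, Krt15, Krt5 and Krt23. On the standard diet it was Krt8, Krt7, Krt18, Krt80, Krt19, Krt23, Krt5, Krt15 and Krt20. In the adenine libraries Krt7 overlapped Krt18, and Krt20, Krt80, Krt15, Krt5 and Krt23 overlapped each with the next. In the standard libraries Krt80, Krt19, Krt23, Krt5 and Krt15 overlapped each with the next, and Krt20 lay below all others without overlap. By mean, Krt20 was above Krt80, Krt15, Krt5 and Krt23 on the adenine-enriched diet and below all of them on the standard diet.

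Krt8 held nearly the same part of all keratin FPKM in every library, 42.6% to 44.5% in the adenine libraries and 44.0% to 46.7% in the standard libraries. Krt7 held 22.4% to 23.4% in the adenine libraries and 25.4% to 26.2% in the standard libraries. Krt18 held 14.4% to 19.2% and 9.59% to 14.7% on the adenine-enriched and standard diets, ranges that overlap slightly. Krt19 held 5.28% to 6.83% in the adenine libraries and 2.40% to 4.21% in the standard libraries, and Krt20 held 1.74% to 2.65% against at most 0.334%. The part held by Krt80 was 1.63% to 2.01% in the adenine libraries and 3.61% to 3.98% in the standard libraries, without a fall in its own level.

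The 9 keratins summed to 361, 305 and 262 FPKM in adenine 1 to 3, against 139, 144 and 117 FPKM in standard 1 to 3. Within that sum the type I chains (Krt15, Krt18, Krt19, Krt20 and Krt23) were 3.22-fold higher on the adenine-enriched diet and the type II chains (Krt5, Krt7, Krt8 and Krt80) 2.07-fold higher. The ratio of type II to type I was 2.29, 2.50 and 2.55 in adenine 1 to 3, against 3.64, 3.51 and 4.33 in standard 1 to 3. This ratio is free of library scaling, and its groups did not overlap. The log2 difference was -0.64, with p = 0.10 by a two-sided exact permutation test, the smallest p that 3 against 3 libraries can give. Krt8 to Krt18 alone was 2.25, 2.40 and 2.96 in adenine 1 to 3, against 3.01, 3.04 and 4.87 in standard 1 to 3, where adenine 3 and standard 1 nearly touched (log2 difference of -0.49, exact permutation p = 0.10). Without standard 3 that difference was -0.26.

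**Figure D3:**
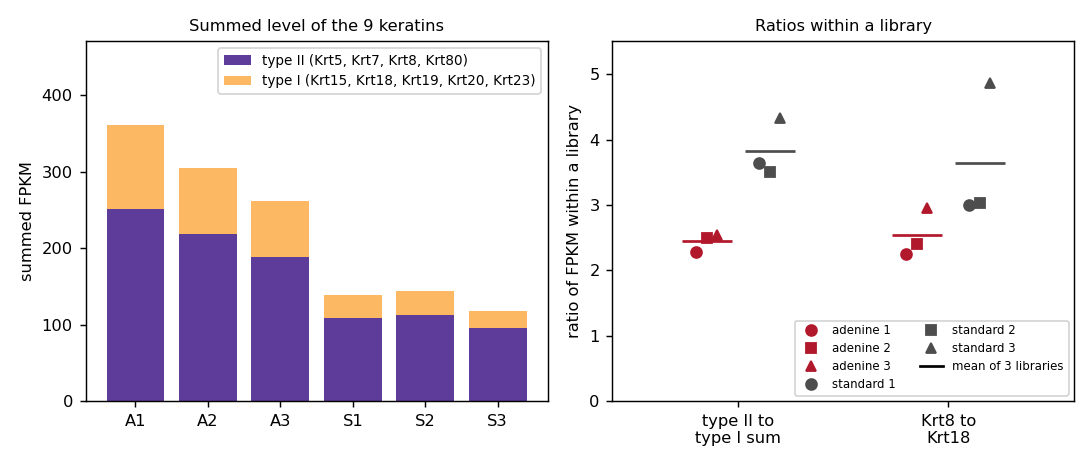
Left, summed FPKM of the 4 type II and 5 type I keratins in each library (A, adenine; S, standard); right, the ratio of type II to type I sums and of Krt8 to Krt18 within each library, with a line at the mean of each 3. The sum is 262 to 361 FPKM in the adenine libraries and 117 to 144 FPKM in the standard libraries, and the type II to type I ratio is at most 2.55 in the adenine libraries and at least 3.51 in the standard libraries.

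The stretches before the transcription starts of 4 of these genes are shown because they form contrasting pairs: Krt8 and Krt18, partners that both rose, and Krt20 and Krt23, neighbours on chromosome 11 that are 39823 bp apart on the same strand and of which Krt20 alone passed the test. RefSeq promoter entries (GRCm38.p6) matched 6 of the 9 keratins by symbol, namely Krt5, Krt7, Krt8, Krt18, Krt20 and Krt23. Each line gives the 100 bases before the RefSeq start on the gene's own strand, 5′ to 3′. In capitals, where present, is ATAAA, a part of the TATA box sequence TATAAA that alone does not make a TATA box. Other stretches like a TATA box were not searched and are not marked, such as tataa in the Krt18 line. The windows are chr15:102004343-102004442 (minus strand) for Krt8, chr15:102028116-102028215 (plus strand) for Krt18, chr11:99438154-99438253 (minus strand) for Krt20 and chr11:99493121-99493220 (minus strand) for Krt23.
Krt8: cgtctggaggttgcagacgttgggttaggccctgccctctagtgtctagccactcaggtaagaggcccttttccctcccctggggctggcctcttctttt
Krt18: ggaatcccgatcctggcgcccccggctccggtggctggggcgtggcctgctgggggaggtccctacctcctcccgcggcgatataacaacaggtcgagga
Krt20: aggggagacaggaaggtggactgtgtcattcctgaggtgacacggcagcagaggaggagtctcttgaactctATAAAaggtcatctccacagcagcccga
Krt23: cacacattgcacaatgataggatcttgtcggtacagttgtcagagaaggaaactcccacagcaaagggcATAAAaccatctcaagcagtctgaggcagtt

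In these 100 bases ATAAA, searched on both strands, was found in Krt5, Krt7, Krt20 and Krt23, and in 17.5% of all 32851 RefSeq promoter entries. It began 28 bases before the start in Krt20 and 31 bases before it in Krt23, so genes that rose and genes that did not pass the test both carried it. The longer TATAAA, which contains ATAAA, was found in Krt20 and in 5.56% of all entries. GGGCGG, the core of a GC box, was found in Krt7 and in 24.7% of all entries. TGANTCA, the AP-1 element, was found in none of the 6 and in 2.73% of all entries. A match is a description of these letters only.

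The basal keratins and the simple keratins were highest in different libraries. Krt5, Krt15 and Krt14, a type I partner of Krt5, summed to 5.82, 6.65 and 21.6 FPKM in adenine 1 to 3, against 4.21, 4.44 and 7.37 FPKM in standard 1 to 3. Adenine 3 was highest for each of these 3 genes, and Krt14 alone was 0.862, 1.42 and 5.51 FPKM in adenine 1 to 3, against 0.780, 1.13 and 0.975 FPKM in standard 1 to 3 (log2 change of 0.66, limma adjusted p = 0.277). Adenine 3 was the lowest adenine library for Krt7, Krt8, Krt18 and Krt20.

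Markers of the urothelium were read beside them. The uroplakins Upk1a, Upk1b, Upk2 and Upk3a, membrane proteins of its surface cells, summed to 28.7, 21.9 and 43.1 FPKM in adenine 1 to 3, against 20.5, 16.2 and 21.5 FPKM in standard 1 to 3. Adenine 3 was again the highest library. None of the 4 passed the test, with limma adjusted p = 0.350 for Upk1a, 0.0967 for Upk1b, 0.252 for Upk2 and 0.0667 for Upk3a (0.0205 with the replicate block). Trp63, a transcription factor of basal cells, was 1.34 ± 0.0349 FPKM on the adenine-enriched diet and 0.690 ± 0.304 FPKM on the standard diet (limma adjusted p = 0.062, 0.0457 without standard 1).

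Of the 14 tested genes of the urothelium list other than the keratins described here, 2 rose and 1 fell (against 29.7% and 6.84% of all genes). The small proline-rich genes Sprr2f and Sprr1a rose, Sprr2f having 4.76, 11 and 4.96 FPKM in adenine 1 to 3, against 0, 0 and 0.297 FPKM in standard 1 to 3 (limma adjusted p = 0.0042). Sprr1a was 24.5 ± 5.90 FPKM on the adenine-enriched diet and 10.3 ± 0.595 FPKM on the standard diet (limma adjusted p = 0.00663). Snx31, a sorting nexin of umbrella cells, fell to 5.20 ± 2.45 FPKM against 13.6 ± 2.90 FPKM (limma adjusted p = 0.0177), a call that ended without adenine 2, standard 1 or standard 2 (0.0678, 0.0578 and 0.0626). The 16 genes of that list other than these keratins, none of them at 0 in all libraries, summed to 117 to 142 FPKM in the adenine libraries and 92.3 to 133 FPKM in the standard libraries. The mean of each of these uroplakins was higher on the adenine-enriched diet, as was that of Krt20 (26.9-fold). Among the adenine libraries, adenine 3 had the least Krt20 and the highest uroplakin sum. The part of urothelial RNA in any keratin change was not tested.

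**Figure D4:**
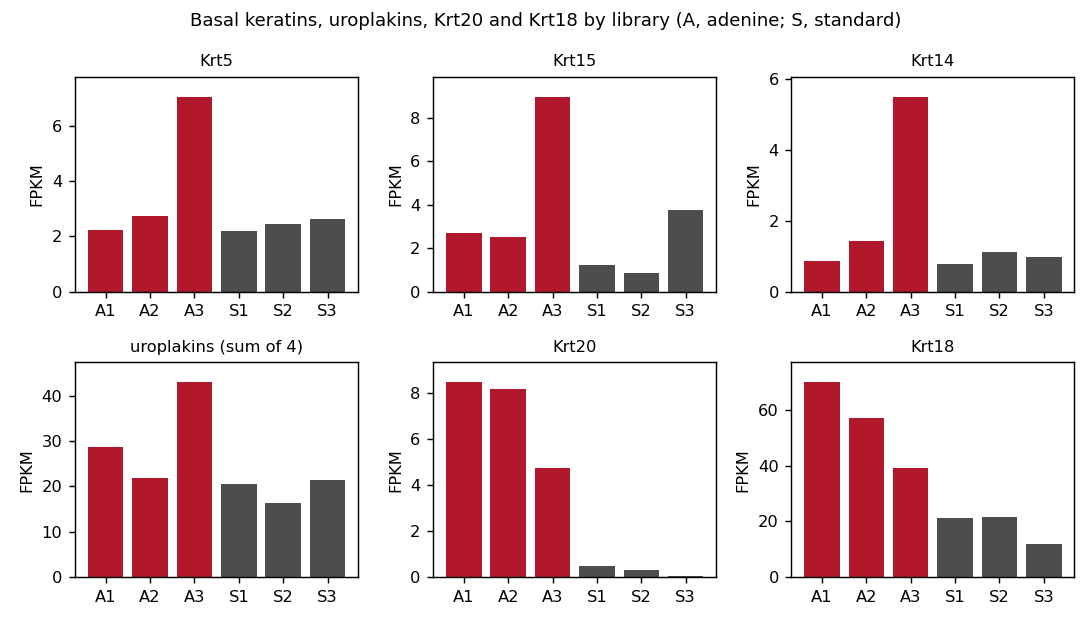
FPKM by library (A, adenine in red; S, standard in grey) of Krt5, Krt15, Krt14, the summed uroplakins Upk1a, Upk1b, Upk2 and Upk3a, Krt20 and Krt18. Krt5, Krt15, Krt14 and the uroplakins peak in adenine 3, at 7.06, 8.99, 5.51 and 43.1 FPKM, while Krt20 and Krt18 are lower in adenine 3 than in adenine 1 and 2.

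Collecting duct genes other than the keratins moved both ways. Of 13 tested genes of that list none rose and 1 fell (against 29.7% and 6.84% of all genes). After scaling none rose and 4 fell (against 16.4% and 15.8% of all genes), with 2 falls with the replicate block. Hsd11b2, Scnn1b and Gata3 were higher in every adenine library without passing the test (limma adjusted p = 0.0745, 0.0610 and 0.0798). Aqp4 alone of the 13 was lower in every adenine library. Aqp2, the water channel that defines principal cells, was 80.4 ± 10.2 FPKM on the adenine-enriched diet and 114 ± 51.4 FPKM on the standard diet (limma adjusted p = 0.424). Without standard 3, its lowest standard library, Aqp2 fell, with a log2 change of -0.82 against -0.38 with all libraries (limma adjusted p = 0.0304). Aqp4 fell to 9.86 ± 2.71 FPKM against 49.3 ± 12.2 FPKM (limma adjusted p = 0.0042). The 13 genes summed to 418 to 473 FPKM in the adenine libraries, against 558, 563 and 377 FPKM in standard 1 to 3, so standard 3 was low in this list. Standard 3 was also the lowest standard library for Krt7, Krt8, Krt18, Krt20, Krt23 and Krt80, but not for Krt5, Krt15 and Krt19. Without standard 3, 5 genes of the list fell, and Krt7, Krt8, Krt18 and Krt19 remained risen.

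In the parietal epithelium list, the cells that line Bowman's capsule, 5 of 7 tested genes other than Krt8 and Krt18 rose and none fell. Ncam2 of that list was under the filter and lower in every adenine library. It had 0.115 ± 0.0939 FPKM on the adenine-enriched diet against 0.427 ± 0.0909 FPKM (limma adjusted p = 0.0319 without the filter). Cd44, a hyaluronan receptor, reached 19.1 ± 8.56 FPKM on the adenine-enriched diet against 1.46 ± 0.208 FPKM, and Ncam1, an adhesion molecule, 6.06 ± 2.30 against 1.21 ± 0.301 FPKM (limma adjusted p = 0.00419 and 0.00839). In the thin limb and papilla list 4 of 10 genes rose and 2 fell (against 29.7% and 6.84% of all genes). After scaling 2 rose and 4 fell (against 16.4% and 15.8% of all genes). The rises numbered 1 without adenine 1, adenine 2, standard 1 or standard 3, and the falls 1 without adenine 2, standard 1 or standard 2 and 4 without standard 3. The water channel Aqp1 fell to 299.9 ± 17.3 FPKM on the adenine-enriched diet against 497 ± 40.8 FPKM on the standard diet (limma adjusted p = 0.00856). Cldn4, a tight junction claudin, rose to 57.4 ± 21.8 FPKM against 16.4 ± 8.18 FPKM (limma adjusted p = 0.0185), a call that ended without adenine 1, adenine 2, standard 1 or standard 3 (0.0514, 0.0675, 0.0655 and 0.0612).

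Among 5 tested mesothelium genes other than the keratins 2 rose and 1 fell (against 29.7% and 6.84% of all genes). Msln, which defines that layer, was 1.77 ± 0.454 FPKM on the adenine-enriched diet against 0.459 ± 0.192 FPKM (limma adjusted p = 0.0144, 0.111 with quantile normalization), and Muc16 was listed at 0 in all libraries. Gpm6a, a neuronal membrane glycoprotein also in the list, fell to 48.7 ± 10.6 FPKM against 94.1 ± 8.97 FPKM (limma adjusted p = 0.00904). The epidermis list summed, without Krt5, to 4.14 to 8.22 FPKM in the adenine libraries and 4.50 to 5.01 FPKM in the standard libraries. Krt2, Krtdap and Sprr1b of that list were listed at 0 in every library, while its other genes, such as Krt1, Lor and Flg, were above 0 in some. Of its 3 tested genes other than Krt5 none rose and 1 fell. The part of these cell types in the keratin changes was not tested.

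Of the other 42 keratins 21 were listed at 0 in all 6 libraries, and 18 more stayed under the filter with no value above 0.706 FPKM in any library. Of the 3 that were tested, Krt17, a type I keratin of basal and wounded epithelium, rose to levels near 1 FPKM. It had 1.45, 0.764 and 1.02 FPKM in adenine 1 to 3, against 0.0608, 0.0327 and 0 FPKM in standard 1 to 3. Krt17 passed the filter only through the adenine libraries. The groups were separate, and the log2 change was 1.00 ± 0.167 (SE, limma adjusted p = 0.00874), 0.91 after scaling.

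Krt10, a type I keratin of the upper epidermis, fell. It had 1.65, 1.64 and 1.94 FPKM in adenine 1 to 3, against 3.43, 2.99 and 3.68 FPKM in standard 1 to 3. No adenine library reached the lowest standard library. The mean was 1.93-fold lower on the adenine-enriched diet, with a log2 change of -0.67 ± 0.132 (SE, limma adjusted p = 0.0130, 0.0583 without adenine 2) that was -0.89 after scaling.

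The intermediate filament genes outside the keratin family rose beside them. Of 7 tested, 6 rose and none fell, with a median log2 change of 0.98, and the same count rose after scaling. Among all genes 29.7% rose as deposited and 16.4% after scaling. Vim, the vimentin of mesenchymal cells and of dedifferentiated tubules, reached 127 ± 49.8 FPKM on the adenine-enriched diet against 27.0 ± 4.83 FPKM on the standard diet (limma adjusted p = 0.00525). Nes, which encodes nestin of podocytes and progenitor cells, reached 13.0 ± 2.50 FPKM against 5.32 ± 0.471 FPKM, and the nuclear lamin gene Lmna 50.4 ± 5.42 FPKM against 25.0 ± 3.33 FPKM (limma adjusted p = 0.00598 and 0.00553).

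The proteins that anchor keratin filaments gave a mixed result. Of 13 tested linker and desmosome genes 7 rose and none fell (against 29.7% and 6.84% of all genes). After median-of-ratios scaling 2 rose and 1 fell (against 16.4% and 15.8% of all genes), and with the replicate block 5 rose and 1 fell. Plec, the cytolinker plectin, rose to 17.6 ± 3.52 FPKM on the adenine-enriched diet against 6.44 ± 1.24 FPKM, and the desmosomal cadherin gene Dsg2 to 8.23 ± 1.53 FPKM against 3.48 ± 0.231 FPKM (limma adjusted p = 0.00656 and 0.00709), and these were the 2 that rose after scaling (limma adjusted p = 0.00748 and 0.00821). Jup, which encodes plakoglobin, was 65.3 ± 0.999 FPKM against 46.3 ± 3.75 FPKM (limma adjusted p = 0.00957), a rise that was lost after scaling (0.177). With 1 library left out 3 to 6 rose, 3 without adenine 1, adenine 2 or standard 2 and 4 without standard 3.

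In the epithelial adhesion list 7 of 14 genes rose and none fell, with 4 rises and 2 falls after scaling and 3 rises without adenine 1, adenine 2, standard 1 or standard 3. The claudin genes Cldn7, Cldn3 and Cldn1, of tight junctions, had the smallest adjusted p among them, at 38.9 ± 9.65, 20.1 ± 3.69 and 34.4 ± 8.79 FPKM on the adenine-enriched diet against 15.6 ± 2.45, 7.21 ± 2.17 and 11.8 ± 3.47 FPKM on the standard diet (limma adjusted p = 0.00826, 0.00893 and 0.0107). Among 15 epithelial transcription factors 6 rose and none fell, as deposited and after scaling. Beside both lists, 29.7% of all genes rose and 6.84% fell as deposited, and 16.4% and 15.8% after scaling. Sox9, a factor of repairing tubules, reached 3.31 ± 0.792 FPKM against 0.141 ± 0.0641 FPKM, Sox4 33.0 ± 10.7 FPKM against 8.56 ± 1.81 FPKM, and Foxm1, a factor of cycling cells, 3.67 ± 1.14 FPKM against 0.746 ± 0.233 FPKM (limma adjusted p = 0.00332, 0.00756 and 0.00726).

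The label of injury was read from other genes. Of 18 genes of the tubular injury list 16 rose and 1 fell (against 29.7% and 6.84% of all genes). Havcr1, the kidney injury molecule, was 127, 275 and 142 FPKM in adenine 1 to 3, against 1.36, 1.42 and 1.45 FPKM in standard 1 to 3. Timp1, an inhibitor of matrix proteases, was 49.2 ± 16.8 FPKM on the adenine-enriched diet and 0.453 ± 0.176 FPKM on the standard diet, and the matrix protease gene Mmp7 was 34.4 ± 17.0 and 0.154 ± 0.153 FPKM on these diets (limma adjusted p = 0.00152 and 0.00296). Cryab, a small heat shock protein gene, was the 1 that fell, to 98.0 ± 11.3 FPKM against 172 ± 23.3 FPKM (limma adjusted p = 0.00985). Adenine 3, the adenine library with the least Krt8, Krt7, Krt18 and Krt20, also had the least of the injury gene Lcn2, 139 FPKM against 458 and 424 FPKM in adenine 1 and 2. Not all genes had this order. Havcr1 was lowest in adenine 1, where Krt8 was highest, and Krt19 was lowest in adenine 2 (16.4 FPKM). Of 22 proximal tubule genes 11 fell and none rose, a count that was 7, 2 and 18 without adenine 1, 2 or 3 and 4, 2 and 3 without standard 1, 2 or 3. Slc5a2, the glucose transporter of the early segment, fell to 36.6 ± 7.5 FPKM against 105 ± 23.2 FPKM, and the phosphate transporter gene Slc34a3 to 3.78 ± 1.48 FPKM against 15.7 ± 5.49 FPKM (limma adjusted p = 0.00628 and 0.0104). Gatm, an enzyme of creatine synthesis, fell to 80.3 ± 6.53 FPKM against 201 ± 74.3 FPKM (limma adjusted p = 0.0163), a call that ended without adenine 2 or standard 2 (0.0604 and 0.0574). Lrp2, the endocytic receptor of that segment, was 51.6, 84.1 and 103 FPKM in adenine 1 to 3, against 111, 149 and 168 FPKM in standard 1 to 3 (limma adjusted p = 0.0497, and above 0.05 with 1 library left out except without adenine 3). Among the adenine libraries, Krt8, Krt7 and Krt18 were highest in adenine 1, where Lrp2 was lowest, and lowest in adenine 3, where Lrp2 was highest. Their dependence on each other was not tested.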

How the data were processed

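For the 6 whole-kidney samples the authors deposited FPKM per gene, with 1 column a sample. Per the labels' protocols, libraries were made from 1 μg of total RNA with a TruSeq RNA kit and random hexamers, and sequenced as paired 100 bp reads on a HiSeq2500. Tools named in the submitters' processing notes are Cufflinks 2.1.1, TopHat and bcl2fastq 2.0, and the builds are GRCm38 and mm10; the annotation is not given in the sources used here. Strand use in counting is not stated, but the table places no other gene across these keratins except Mir1941 within Krt80, which was listed at 0. Another table, of aging mice, has 6 columns of samples not among those listed and was left out.

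FPKM keep no counts. In genes with 1 annotated transcript (GENCODE M21) longer than 2000 bp and under 0.3 FPKM, 65.4% to 74.1% of values at the lowest steps lay within 0.15 of a whole fragment at the estimated depths, with a nominal fragment of 200 bp. These depths are approximate, and the limits of 3 fragments hold for counting error alone. Too many values fell off these steps for whole reads to be rebuilt, and a count test was therefore not used.

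The diets were compared with limma 3.58.1 in R 4.3.3 on log2(FPKM + 1), two-sided, with an intensity trend. Krt20, Krt17, Sprr2f, Sox9, Timp1, Mmp7 and Msln passed the 0.5 FPKM filter only through the adenine libraries, as their standard means were lower. The code was tested on simulated data. The members and gene lists were chosen with earlier results of these data known. All 9 keratins, other keratins with a mean of at least 0.5 FPKM, up to 3 rises and 3 falls with the smallest adjusted p in each list and fixed markers of other cell types are named, except some that are not reported here. Other genes, such as Muc16, Krt2, Krtdap and Sprr1b, were named after their values were seen. Eppk1 of the linker list was not found by symbol. Ratios within a library were tested by exact permutation with scipy 1.17.1. The 16 alternative settings cover scaling, pseudocount, filter, trend, replicate block and libraries left out.

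Samples share replicate numbers across the diets. After subtracting each diet's mean, samples of the same number correlated at 0.257, 0.143 and 0.181, and the others at -0.187 to 0.038. Subtracting the means ties these correlations to each other, and they do not establish a pairing. As no label states a pairing, the main fit leaves the samples unpaired, with the replicate block as an alternative. Values with the replicate block are given for genes described here whose call they change.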

Additional observations from a re-analysis of the deposited data

How the results depend on the processing

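Krt7, Krt8, Krt18 and Krt19 rose under all 16 alternative settings, and Krt20 under the 15 that tested it. Krt5, Krt15, Krt20 and Krt23 have no value with a filter at a mean of 5 FPKM, which leaves them out. The lowest and highest log2 changes were 0.67 and 1.1 for Krt7, 0.81 and 1.24 for Krt8, 1.26 and 1.80 for Krt18, 1.5 and 2.05 for Krt19, and 2.25 and 4.52 for Krt20, with limma adjusted p of at most 0.0485. Krt15 passed the test with the replicate block (0.91), with the replicate block and median-of-ratios scaling (0.69) and without both replicate 3 libraries (0.83), and in none of the other 12. Signs changed with median-of-ratios scaling, alone and with the replicate block, for Krt23 (-0.16), Krt80 (-0.19) and Upk1a (-0.01). They changed with quantile normalization for Krt5 (-0.08), Krt23 (-0.44), Krt80 (-0.38), Upk1a (-0.18) and Upk2 (-0.07), and without both replicate 3 libraries for Krt23 (-0.26). With 1 library left out, the log2 change was -0.26 to 0.25 for Krt23 and -0.09 to 0.22 for Krt80.

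Over all genes, 4581 genes rising and 1056 genes falling became 2140 and 2237 with quantile normalization, 2526 and 2433 with median-of-ratios scaling, and 2575 and 2701 with the replicate block and that scaling. With 1 library left out, genes changed numbered 2053 to 7078, genes rising 1833 to 5480 and genes falling 220 to 1598, against 5637 genes changed with all libraries. The replicate block changed the call of no other gene described here except Upk3a. With it 8 epithelial adhesion genes, 7 epithelial transcription factors and 8 parietal epithelium genes including Krt8 and Krt18 rose, against 7, 6 and 7 without it, 5 thin limb and papilla genes rose and 3 fell, against 4 and 2, and 14 proximal tubule genes fell, against 11. The cause of these differences was not tested. Precision is limited by 3 libraries per diet and, for Krt20 and Krt17 on the standard diet, by depth.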
